A study of Mus musculus with 12 samples.

Results

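Genes named Zfp and a number encode zinc finger proteins, most of which bind DNA through tandem C2H2 fingers, small loops held by a zinc ion between 2 cysteines and 2 histidines. Histone H3 trimethylated at lysine 4 (H3K4me3), a mark of active promoters, was measured at these genes in cardiomyocyte (CM) nuclei sorted from adult mouse hearts by chromatin immunoprecipitation and sequencing. Of 15848 union peaks, 274 lay on autosomes and carried the name of a protein-coding gene formed by Zfp followed directly by digits, and they belonged to 267 genes. All 274 had a mean normalized read count of at least 10 over the 6 libraries and were tested, as were 15039 peaks in all. The deposited table lists other genes of the same kind under names that begin with Znf, such as Znf148 and Znf281. The 45 tested autosomal peaks with such names are no members here.

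The 3 control libraries (CtrlCre) came from αMHC-Cre pos/+; Cpt1b +/+ mice and the 3 mutant libraries (Cpt1bcKO) from αMHC-Cre pos/+; Cpt1b fl/fl mice. Both genotypes thus carry the Cre recombinase, which the promoter of a cardiac myosin heavy chain gene drives in CMs, and age is given only as adult. *Cpt1b* encodes the muscle form of carnitine palmitoyltransferase 1, which lets long-chain fatty acids enter mitochondria. No label ties a library to an animal of its own, so the p-values measure the spread between these libraries. The *Cpt1b* peak itself had normalized read counts of 428, 407 and 436 in CtrlCre and 572, 689 and 568 in Cpt1bcKO, a log2 difference of 0.52 (SE 0.10, adjusted p = 0.00357 in limma). That peak is 9156 bases wide and also holds starts of *Chkb*, *C730034F03Rik* and *Gm44502*, so its signal cannot be divided between the genes, and it does not check the deletion.

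Counts in peaks ranged from 763133 in CtrlCre replicate 2 to 2766416 in Cpt1bcKO replicate 2, a ratio of 3.63, and a count of 3 corresponded to normalized values from 1.95 to 6.97. Peaks were assigned to 10 of 10 CM marker genes, to 1 of 5 fibroblast, 1 of 5 endothelial and 0 of 4 immune marker genes. Of 4 mural cell markers, *Acta2* and *Myh11* had peaks. Their summed normalized read count was 98 to 133 in CtrlCre and 16 to 44 in Cpt1bcKO. The CM markers summed to 8609 to 10421 in CtrlCre and 6320 to 9160 in Cpt1bcKO. The fibroblast marker with a peak had 58 to 69 and 56 to 63, and the endothelial one 39 to 91 and 31 to 51. The part of these markers in any result below was not tested.

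Many of these proteins begin with a Krüppel-associated box (KRAB), which recruits the corepressor TRIM28 and through it the histone H3 lysine 9 methyltransferase SETDB1, and a large share of them silence transposable elements. The genes arose by tandem duplication and lie in clusters. A smaller set lacks the KRAB box and includes transcriptional activators, RNA-binding proteins and ubiquitin ligases. H3K4me3 is deposited by SET1 and MLL complexes, which are drawn to promoters rich in unmethylated CpG dinucleotides, so the CpG content of a promoter is a feature that bears on the mark.

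Promoters of members with the smallest p in each direction, among those RefSeq lists within their peak, are shown with a pair of others for contrast, because their CpG content differs widely. Each line gives the 250 bases before the RefSeq start on GRCm38.p6, 5′ to 3′ on the strand of the gene, with every CpG in capitals. *Zfp385b* (chr2:77816817-77817066, minus strand) and *Zfp597* (chr16:3872375-3872624, minus strand) had lower values in Cpt1bcKO. *Zfp941* (chr7:140822179-140822428, minus strand) and *Zfp697* (chr3:98382231-98382480, plus strand) had higher values. *Zfp36l1* (chr12:80113014-80113263, minus strand) had the highest level of all members, and *Zfp418* (chr7:7171103-7171352, plus strand) is a KRAB gene of the heart.
Zfp385b: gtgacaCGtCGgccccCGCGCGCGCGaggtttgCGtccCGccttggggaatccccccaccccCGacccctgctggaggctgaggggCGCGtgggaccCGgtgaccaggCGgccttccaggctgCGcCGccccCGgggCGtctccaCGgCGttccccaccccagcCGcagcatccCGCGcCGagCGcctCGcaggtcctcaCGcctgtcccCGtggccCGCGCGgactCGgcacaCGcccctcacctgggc
Zfp597: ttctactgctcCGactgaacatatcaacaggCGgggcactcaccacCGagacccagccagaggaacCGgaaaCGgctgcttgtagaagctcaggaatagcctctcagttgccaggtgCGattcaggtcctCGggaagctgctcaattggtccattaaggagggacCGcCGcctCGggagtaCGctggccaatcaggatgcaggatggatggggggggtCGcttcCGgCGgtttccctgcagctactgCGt
Zfp941: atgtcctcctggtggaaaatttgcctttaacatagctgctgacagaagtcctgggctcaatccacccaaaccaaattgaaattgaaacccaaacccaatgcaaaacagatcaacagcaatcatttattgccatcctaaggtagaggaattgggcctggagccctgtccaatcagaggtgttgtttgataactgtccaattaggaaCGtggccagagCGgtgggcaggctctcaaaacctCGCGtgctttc
Zfp697: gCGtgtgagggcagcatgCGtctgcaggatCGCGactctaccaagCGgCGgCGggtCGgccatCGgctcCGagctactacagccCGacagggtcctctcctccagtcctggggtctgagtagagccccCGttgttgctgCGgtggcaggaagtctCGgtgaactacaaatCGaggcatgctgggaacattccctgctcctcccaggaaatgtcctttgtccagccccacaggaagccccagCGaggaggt
Zfp36l1: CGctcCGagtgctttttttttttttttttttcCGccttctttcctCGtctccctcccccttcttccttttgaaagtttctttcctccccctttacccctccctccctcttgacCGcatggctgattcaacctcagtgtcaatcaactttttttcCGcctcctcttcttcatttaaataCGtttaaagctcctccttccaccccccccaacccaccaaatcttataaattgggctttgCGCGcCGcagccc
Zfp418: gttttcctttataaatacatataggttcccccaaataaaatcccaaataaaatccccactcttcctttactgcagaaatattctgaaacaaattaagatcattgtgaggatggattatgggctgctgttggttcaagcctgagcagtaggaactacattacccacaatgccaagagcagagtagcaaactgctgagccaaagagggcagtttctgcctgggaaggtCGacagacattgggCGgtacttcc
The stretch of *Zfp385b* holds 33 CpG and that of *Zfp597* holds 15. *Zfp697* has 16 and *Zfp36l1* has 10. The KRAB genes *Zfp941* and *Zfp418* have 4 and 2.

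RefSeq promoters, from 250 bases before the start to 50 after it, overlapped the peaks of 221 of the 267 genes. A median of 11 CpG per promoter (quartiles 8 and 17) was found in the 144 KRAB promoters and of 21 (quartiles 16 and 27) in the 77 without KRAB. The 12917 promoters of other genes that overlapped a tested peak had a median of 22. GGGCGG, the GC box bound by SP1 and its relatives, was present in 33.3% of KRAB promoters, in 54.5% of the promoters without KRAB and in 67.9% of the other promoters in peaks. CCAAT, bound by NF-Y, was present in 54.2%, 33.8% and 36.8% of them. All motifs were searched on both strands, and a match is a stretch of letters and not a measured binding site.

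The letters ACTACANTT, the core recognised by the zinc finger protein ZNF143, stood out among the motifs by their share in KRAB promoters. They occurred in 31 of 144 KRAB promoters (21.5%), in 6 of 77 promoters without KRAB (7.79%), in 2.35% of the other promoters in peaks and in 1.57% of all 32851 promoters of the table. The 35 matches in KRAB promoters lay on 6 chromosomes, but most of them were on chromosomes 7 and 13. All those on chromosome 13 fell within the cluster from *Zfp712* to *Zfp273*. Of the 35 matches, 28 lay on the strand opposite to the gene. The centres of the 35 had a median position 49 bases before the start (position -49), and 26 lay within the last 100 bases before it. The 8 KRAB members with the highest mean among those holding the letters are shown, chosen after the matches were seen. Each line gives 29 bases on the strand of the match, with the match in capitals.
Zfp84: tttatagtggACTACATTTcccagaaggc
Zfp780b: cgccgcaaggACTACATTTcccagggtcc
Zfp189: tggcaagcgaACTACATTTcccggaatgc
Zfp457: aggcgatgggACTACATTTcccacaagtc
Zfp790: acggccttgaACTACATTTcccagaatac
Zfp112: agggtcatgaACTACATTTcccagaattt
Zfp874b: cgtgctacagACTACATTTcccacaagtc
Zfp1: gaggtgtaggACTACAATTcccataatgc
On GRCm38.p6, these lines are chr7:29768522-29768550 (minus strand) for *Zfp84*, chr7:27979200-27979228 (minus) for *Zfp780b*, chr4:49521147-49521175 (minus) for *Zfp189* and chr13:67306470-67306498 (plus) for *Zfp457*. The others are chr7:29815961-29815989 (minus) for *Zfp790*, chr7:24112164-24112192 (minus) for *Zfp112*, chr13:67484267-67484295 (plus) for *Zfp874b* and chr8:111643410-111643438 (minus) for *Zfp1*. The match was followed by CC in all 33 KRAB windows that lay whole within the promoter, letters the search did not ask for. Neighbouring genes of a cluster share ancestry, so their promoters are not independent examples. KRAB members with and without the letters had median levels of 92.7 and 90.2 normalized read counts per kb of peak, and median log2 differences between genotypes of 0.02 and 0.03.

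**Figure D1:**
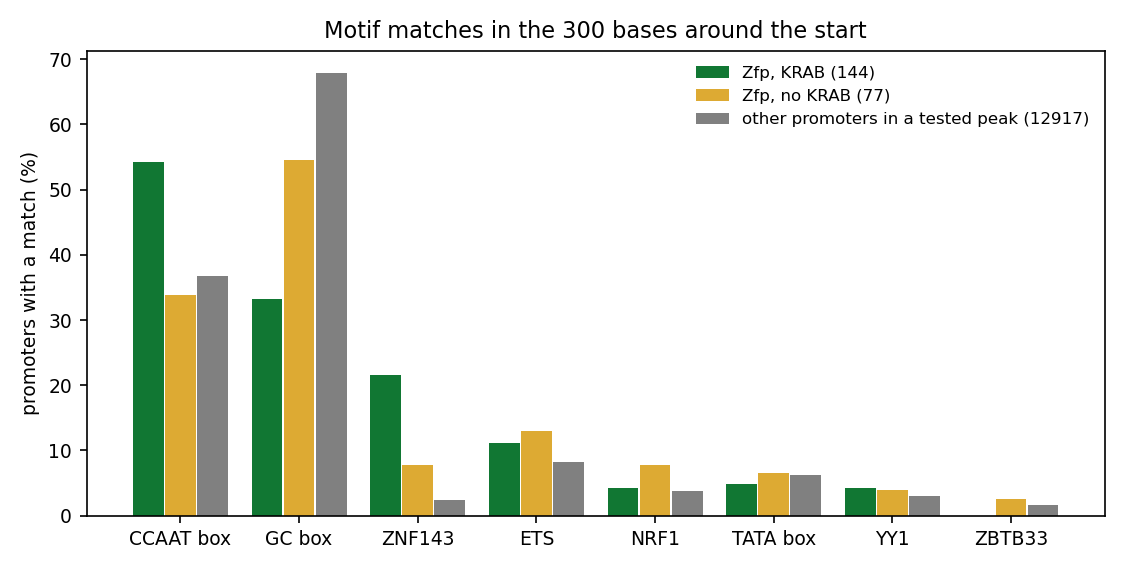
Bars give the percentage of RefSeq promoters (250 bases before to 50 after the start) with at least 1 match on either strand, for 144 KRAB Zfp promoters, 77 Zfp promoters without KRAB and 12917 other promoters overlapping a tested peak. The ZNF143 letters reach 21.5% in KRAB promoters against 2.35% in the other promoters, and the GC box is less frequent in them (33.3% against 67.9%).

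The other motifs differed less. CCGGAAGT, bound by ETS factors, was in 11.1% of KRAB promoters, 13.0% of those without KRAB and 8.28% of the other promoters in peaks. For GCGCATGCG, bound by NRF1, the shares were 4.17%, 7.79% and 3.82%, and for TATAAA, the TATA box, they were 4.86%, 6.49% and 6.22%. AAGATGGCG, bound by YY1, was in 4.17%, 3.90% and 3.09%. CTCGCGAGA, bound by ZBTB33, was in 0 of 144 KRAB promoters, in 2 of the 77 without KRAB and in 1.56% of the others. Over all promoters of the table, the shares were 35.7% for the GC box, 37.4% for CCAAT, 3.89% for ETS, 1.75% for NRF1, 13.6% for TATAAA, 1.40% for YY1 and 0.676% for ZBTB33.

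A KRAB box was recognised by pattern in the longest annotated protein of 170 genes (175 peaks). In 97 genes (99 peaks) the pattern found none. Members without KRAB are those without such a match, and a box that departs from the pattern would be missed. Some of them may thus encode KRAB proteins. The proteins held a median of 11 C2H2 fingers per peak, up to 41 in *Zfp142*. In all, 7 peaks belonged to proteins with 0 such fingers, among them *Zfp36*, *Zfp36l1* and *Zfp36l2*, whose 2 CCCH fingers bind RNA. Chromosome 7 held 73 member peaks (26.6%), beside 7.58% of all tested autosomal protein-coding peaks. Chromosome 17 held 37 (13.5% beside 4.86%) and chromosome 13 held 29 (10.6% beside 4.11%).

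KRAB members had narrower H3K4me3 peaks by median width, with a higher median level per kb. Their median width was 1243 bases (quartiles 994 and 1512), beside 1704 bases for members without KRAB and 1650 for the other tested autosomal protein-coding peaks. CpG density was 33.3 per kb of peak in KRAB members, 54.8 in the other members and 53.1 in the other protein-coding peaks, and GC content was 50.7%, 56.8% and 56.6%. The median level per kb over KRAB members lay between 84.3 and 93.9 normalized read counts per kb in the 6 libraries, above the range for members without KRAB (71.2 to 78.4) and above that for other protein-coding peaks (68.7 to 71.5). KRAB members were highest in each of the 6 libraries. The level per kb depends on where the edges of a peak are set. These are descriptions over peaks, which are not replicates.

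**Figure D2:**
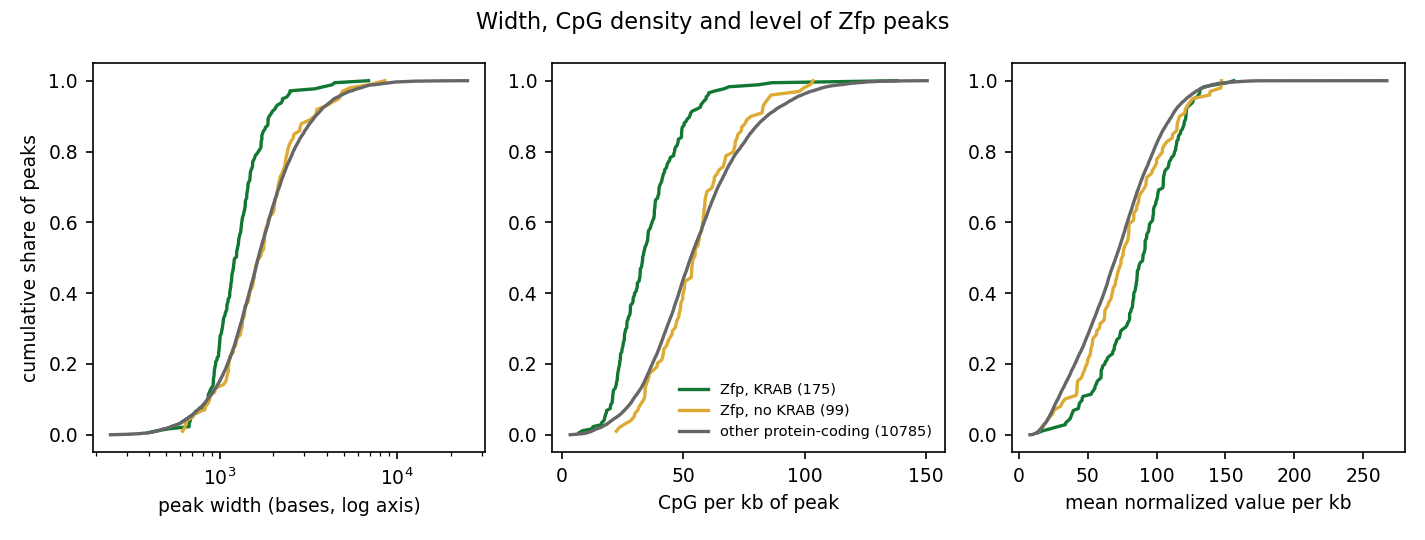
Cumulative shares of peaks against width (bases, log axis), CpG per kb of peak and mean normalized read count per kb of peak, for 175 KRAB Zfp peaks, 99 Zfp peaks without KRAB and 10785 other tested autosomal protein-coding peaks. The KRAB curve lies left of the others for width and CpG density and right of them for the level per kb.

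The number of fingers followed the same division. The median level per kb was 62.8 for the 27 peaks of proteins with 1 to 4 fingers, 78.7 for 71 peaks with 5 to 9, 89.9 for 101 peaks with 10 to 14 and 91.7 for 68 peaks with 15 or more. Over the same groups the median width was 1566, 1441, 1314 and 1184 bases, and CpG density was 59.4, 43.2, 35.7 and 35.6 per kb. Peaks of the related families Zbtb, Zscan, Zkscan and Klf (69 peaks of 64 genes) had a median width of 1905 bases, 49.0 CpG per kb and 65.3 normalized read counts per kb.

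Broad H3K4me3 peaks, wider than the 75th percentile of all tested peaks (2222 bases), made up 38 of 274 members (13.9%), and 11 of the 38 were KRAB members. The 5 widest were those of *Zfp36* (8516 bases), *Zfp36l1* (7132), *Zfp398* (6893), *Zfp423* (5414) and *Zfp462* (4899). Narrow peaks, under 1030 bases, numbered 64 (23.4%), of which 51 were KRAB members.

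The highest levels belonged to genes without a KRAB match, with 1 exception. *Zfp36l1*, an activator of mRNA decay, had 518, 460 and 541 normalized read counts in CtrlCre and 513, 539 and 495 in Cpt1bcKO. *Zfp36*, which encodes tristetraprolin, had 360, 321 and 441 against 365, 383 and 304. *Zfp668* followed with a mean of 356, *Zfp398*, a KRAB gene, with 307 and *Zfp827* with 301. The peak of *Zfp668* also held the start of *Zfp646*, and that of *Zfp398* the start of *Zfp786*. The 5 lowest members, those of *Zfp800*, *Zfp972*, *Zfp459*, *Zfp648* and the smaller of 2 peaks of *Zfp219*, had means between 12.2 and 14.7.

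Another protein-coding start lay within 19 member peaks (6.93%, beside 14.0% of the tested autosomal protein-coding peaks), and in 14 of these it lay on the opposite strand. In such peaks the signal cannot be divided between the genes. Pairs of zinc finger genes in 1 peak were *Zfp882* with *Zfp617*, *Zfp934* with *Zfp935*, *Zfp943* with *Zfp942* and *Zfp944* with *Zfp758*, besides the pairs already named. None of these peaks reached an adjusted p under 0.05 in limma, beside 2.93% of all tested peaks. Only *Zfp597*, which shares its peak with *Naa60*, reached an unadjusted p under 0.05, beside 5.84% higher and 6.98% lower of all tested peaks.

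Most annotated Zfp genes carried the mark in CMs. The GENCODE annotation used here (vM21, on GRCm38) lists 385 autosomal protein-coding genes named Zfp and a number. The start of 304 (79.0%) lay in a union peak under some name, beside 52.3% of all 20807 autosomal protein-coding genes. For 53, neither the start lay in a peak nor was a peak assigned. *Zfp42*, a marker of embryonic stem cells also known as Rex1, was among them. So were 19 of the 30 genes on chromosome 4 and 10 of the 28 on chromosome 2. The authors kept uniquely aligned reads, so at near-identical copies a lack of H3K4me3 and a lack of alignable reads cannot be told apart.

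As a set, the members took up 1.96%, 1.92% and 1.92% of the normalized read counts in peaks in CtrlCre and 1.98%, 1.97% and 1.91% in Cpt1bcKO. The means were 1.94% ± 0.0229 and 1.95% ± 0.0352 (SD, n = 3 each), and the ranges overlapped. The median member value was 116.5, 116 and 117.5 in CtrlCre and 119, 121 and 116 in Cpt1bcKO. The size factors of the authors set most peaks to no change, so a change shared by all peaks would not show.

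At single peaks the question was whether loss of *Cpt1b* altered H3K4me3 at any zinc finger gene. In limma, 1 of 274 members (0.365%) had an adjusted p under 0.05, beside 2.93% of all tested peaks. It was *Zfp385b*, which fell. At an unadjusted p under 0.05, 13 members were higher in Cpt1bcKO (4.74%, beside 5.84% of all tested peaks) and 8 were lower (2.92%, beside 6.98%). The 3 values of Cpt1bcKO all lay above those of CtrlCre at 17 members (6.20%, beside 7.80% of all tested peaks) and all below at 12 (4.38%, beside 8.46%). All 5 shares of members lay below those of all tested peaks, a difference that was not tested. The 69 peaks of the Zbtb, Zscan, Zkscan and Klf families and the 45 Znf-named peaks had 0 adjusted calls as well. At the unadjusted threshold 1.45% of the former were higher and 7.25% lower, and 6.67% and 4.44% of the latter. The median log2 difference over members was 0.03, beside 0.01 over all tested peaks and 0.02 over tested autosomal protein-coding peaks. The median of its absolute size was 0.10, beside 0.14 and 0.12. That size varied with the level of a peak. At means of 100 to 200 it was 0.085 over 152 members and 0.097 over all tested peaks. At means under 50, where 26 members and 4422 of all tested peaks lay, it was 0.38 and 0.29. The median log2 difference over members lay between 0.00708 (without Cpt1bcKO replicate 1) and 0.0536 (without Cpt1bcKO replicate 3) when each library was left out. Without CtrlCre replicate 2, the shallowest library, the members at an unadjusted p under 0.05 were 5 higher and 7 lower. With limma-voom on recovered counts they were 8 higher and 10 lower. The shares of all tested peaks in these alternatives are not given.

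**Figure D3:**
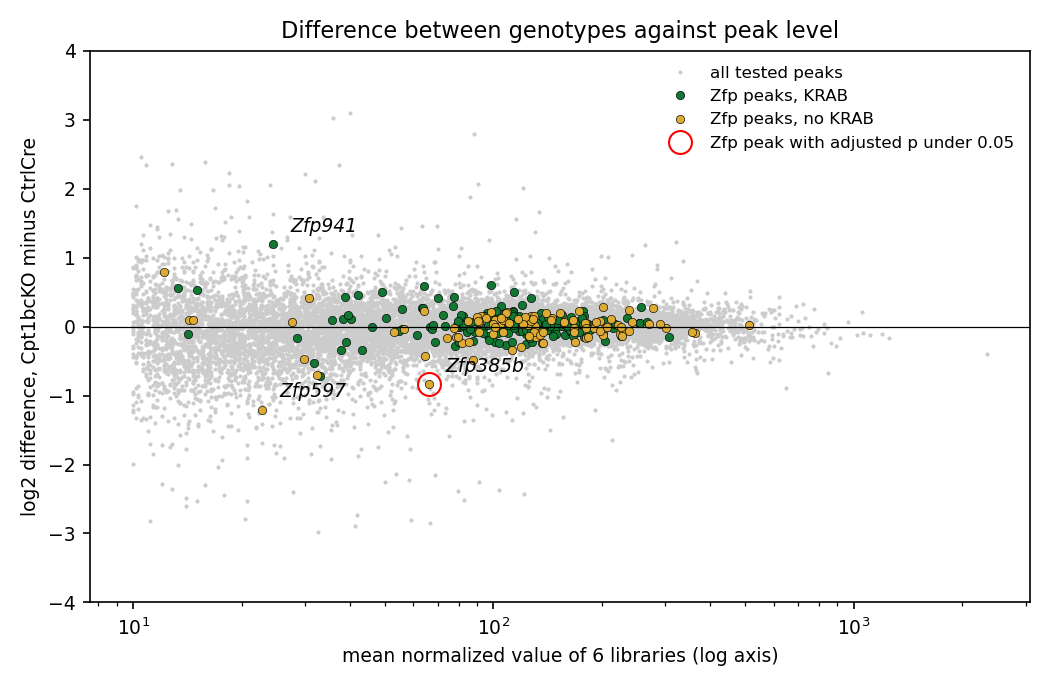
Log2 difference between genotypes (Cpt1bcKO minus CtrlCre) against the mean normalized read count of the 6 libraries (log axis), for all 15039 tested peaks in grey, 175 KRAB Zfp peaks in green and 99 Zfp peaks without KRAB in yellow. Of the Zfp peaks, 262 lie within 0.5 of 0, and the red ring marks *Zfp385b*, the member with an adjusted p under 0.05 (0.00916).

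*Zfp385b*, a relative of the p53 partner Zfp385a, had 91, 86 and 78 normalized read counts in CtrlCre and 49, 40 and 53 in Cpt1bcKO. Every mutant library lay below every control library, with means of 85.0 ± 6.56 and 47.3 ± 6.66 (SD, n = 3 each). The log2 difference was -0.84 (SE 0.18, adjusted p = 0.00916 in limma). The peak (chr2:77816008-77817574, as the table gives it) had 65.0% GC and 86.2 CpG per kb, beside medians of 52.6% and 39.5 over members, and it held no other protein-coding start. The direction was kept without any 1 library, but the adjusted p rose to 0.0811 without CtrlCre replicate 1 and to 0.0567 without Cpt1bcKO replicate 2, and it lay between 0.00480 and 0.0811 over all alternatives run.

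*Zfp597* (chr16:3871887-3872769) had 29, 40 and 27 in CtrlCre and 19, 13 and 9 in Cpt1bcKO, again without overlap. The log2 difference of -1.21 (SE 0.36, adjusted p = 0.0752) was the most negative of all members. With limma-voom on recovered counts its adjusted p was 0.0411, within a range of 0.0411 to 0.247 over all alternatives run. A mean of 22.8 left it among the weaker members, and a start of *Naa60*, an N-terminal acetyltransferase gene, lay in the same peak.

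Of the other lower members with an unadjusted p under 0.05 in limma and no overlap, none passed adjustment. *Zfp879*, a KRAB gene, had 38, 40 and 46 in CtrlCre against 23, 25 and 26. *Zfp853* had 35, 56 and 31 against 25, 26 and 21. *Zfp821* had 66, 84 and 72 against 61, 49 and 55, and *Zfp637* had 170, 198 and 176 against 157, 164 and 143. Their log2 differences were -0.72 (SE 0.26), -0.70 (SE 0.29), -0.42 (SE 0.18) and -0.23 (SE 0.11), with adjusted p in limma between 0.186 and 0.383.

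The members with higher values in Cpt1bcKO included *Zfp568*, a KRAB repressor that silences a placental promoter of *Igf2*. It had 239, 205 and 249 normalized read counts in CtrlCre and 291, 292 and 263 in Cpt1bcKO, a log2 difference of 0.29 (SE 0.10, adjusted p = 0.162 in limma). After a correction for GC content the adjusted p was 0.0486, the lowest of all alternatives run, which reached up to 0.436. *Zfp697*, a gene of muscle, had 200, 165 and 180 against 217, 210 and 233. *Zfp462*, a chromatin regulator that keeps lineage genes silent in embryonic stem cells, had 223, 205 and 224 against 251, 266 and 256. The log2 differences of *Zfp697* and *Zfp462* were 0.28 (SE 0.10) and 0.25 (SE 0.10).

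*Zfp941*, *Zfp65*, *Zfp599* and *Zfp28*, all KRAB genes, were the remaining higher members with an unadjusted p under 0.05 in limma and no overlap. *Zfp941* had 8, 21 and 14 against 25, 23 and 56, and its log2 difference of 1.19 (SE 0.40) rested on low values with a wide spread. The *Zfp65* peak of 966 bases had 112, 84 and 133 against 138, 149 and 145. It lies downstream of the start of the gene, which is in a second peak with a log2 difference of 0.07. *Zfp599* had 53, 33 and 37 against 63, 55 and 54, and *Zfp28* had 99, 95 and 88 against 109, 123 and 114. The adjusted p of these 4 lay between 0.136 and 0.331 in limma. *Zfp941* reached 0.0415 without CtrlCre replicate 2 and *Zfp65* reached 0.0407 without CtrlCre replicate 3, while the highest values over the alternatives run were 0.532 and 0.469.

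**Figure D4:**
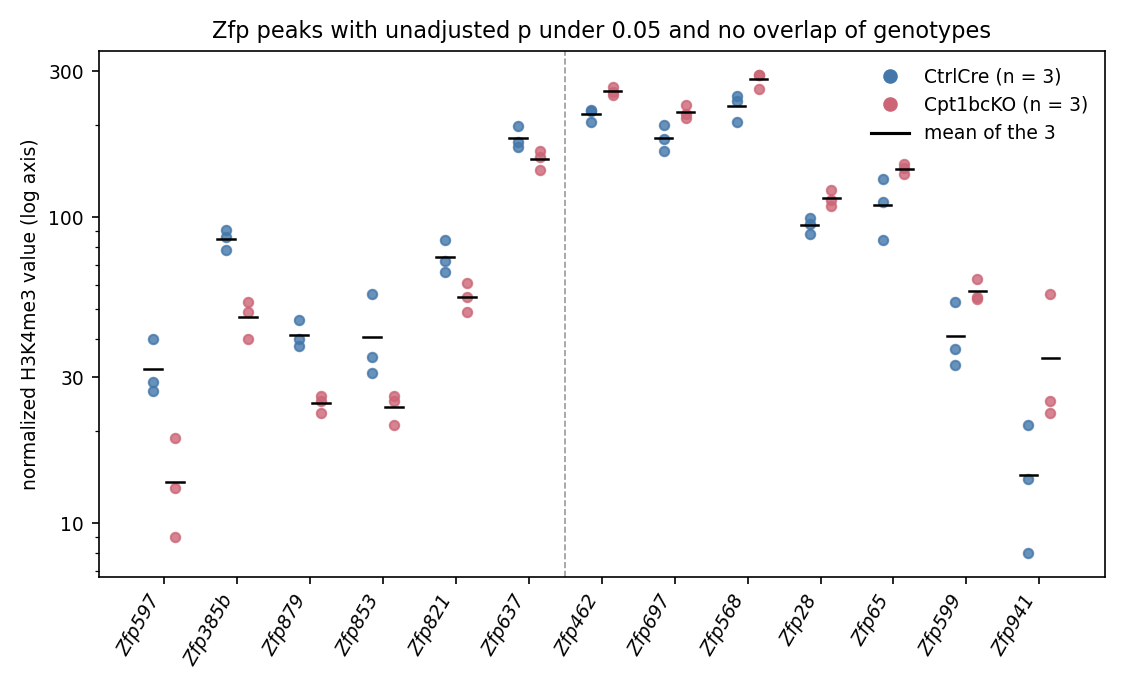
Normalized read counts (log axis) in the 3 CtrlCre and 3 Cpt1bcKO libraries at the 13 member peaks with an unadjusted p under 0.05 and no overlap between genotypes, with bars at the means. The 6 peaks left of the dashed line are lower in Cpt1bcKO and the 7 right of it are higher.

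The remaining 8 members with an unadjusted p under 0.05 overlapped between genotypes. *Zfp729b*, a KRAB gene with 30 fingers, had the smallest p of all higher members, with 82, 77 and 127 in CtrlCre against 123, 145 and 129 (log2 difference 0.50, SE 0.16, adjusted p = 0.102 in limma). Its lowest mutant value lay just under its highest control value. *Zfp467* had 88, 119 and 100 against 57, 70 and 94 (log2 difference -0.49, SE 0.18), and *Zfp536* had 256, 281 and 217 against 320, 270 and 316 (0.27, SE 0.11). These 3 are named after their values were seen. The others were *Zfp423*, *Zfp14*, *Zfp948*, *Zfp53* and a peak of *Zfp184*.

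The counts at the unadjusted threshold were also read by family, and the difference between families was not tested. Of 175 KRAB members, 10 were higher (5.71%) and 1 was lower (0.571%), whereas of 99 members without KRAB 3 were higher (3.03%) and 7 were lower (7.07%), beside 5.84% higher and 6.98% lower of all tested peaks. The median log2 difference was 0.03 in both. These counts moved with the libraries and the fit used. Calls over all tested peaks in the same alternatives are not given, so a move of members alone cannot be read from them. Without CtrlCre replicate 2, 3 KRAB members were higher and 5 lower, and 2 members without KRAB were lower. With limma-voom, 5 KRAB members were higher and 5 lower. Without Cpt1bcKO replicate 2, 6 were higher and 5 lower. Lower KRAB members numbered 3 without CtrlCre replicate 1, 4 without CtrlCre replicate 3 and 3 without Cpt1bcKO replicate 1. At several KRAB peaks CtrlCre replicate 2 lay below all others. *Zfp53* had 102, 35 and 112 in CtrlCre against 109, 109 and 122, and the narrower *Zfp184* peak had 59, 28 and 73 against 80, 71 and 74, both chosen for description after their values were seen. Over all KRAB members, the median deviation from the mean of a peak (log2 scale) was 0.02, -0.05 and 0.01 in CtrlCre and 0.04, 0.06 and -0.05 in Cpt1bcKO. GC content moved with these deviations most in Cpt1bcKO replicates 2 and 3. Across members, the deviation correlated with GC content with r = -0.381 in Cpt1bcKO replicate 2 and r = 0.350 in Cpt1bcKO replicate 3. Across all tested peaks the values were r = -0.310 and r = 0.346. In CtrlCre replicates 1, 2 and 3 and Cpt1bcKO replicate 1, r across members was -0.181, 0.14, -0.029 and -0.05. The log2 difference between genotypes correlated with GC content across members with r = 0.009. Depth and GC content were not tested as causes.

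Members were also read by role. The genes of mRNA decay, *Zfp36*, *Zfp36l1* and *Zfp36l2*, had log2 differences of -0.09, 0.03 and -0.24, and none passed an unadjusted p under 0.05. Among genes that silence imprinted loci and retroelements, *Zfp568* was higher at the unadjusted threshold. *Zfp445*, which guards imprints together with *Zfp57*, had 140, 151 and 138 in CtrlCre and 138, 161 and 118 in Cpt1bcKO. *Zfp57* itself had low values, 6, 12 and 19 against 10, 21 and 22. *Zfp809*, which recognises retroviral primer binding sites, had a log2 difference of -0.22 (SE 0.14), and *Zfp932* had 0.14 (SE 0.13).

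Of the genes linked to muscle and heart, *Zfp697* was higher at the unadjusted threshold. *Zfp260*, a cofactor of GATA4 in CMs, had 144, 135 and 120 against 150, 126 and 104, and the ranges overlapped. *Zfp418* had 123, 121 and 116 against 113, 104 and 129. *Zfp106*, an RNA-binding protein needed by nerve and muscle, had a log2 difference of 0.19 (SE 0.12), and *Zfp609* had 0.09 (SE 0.14).

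Of the genes linked to metabolism and fat, *Zfp423*, which commits cells to the fat lineage, was lower at the unadjusted threshold. It had 126, 139 and 110 against 86, 87 and 127, with overlap, and a log2 difference of -0.34 (SE 0.15, adjusted p = 0.335 in limma). *Zfp746*, which represses the gene for the mitochondrial regulator PGC-1α, had 72, 93 and 58 against 57, 55 and 77, and the groups overlapped. The log2 differences of *Zfp69* and *Zfp30* were 0.22 (SE 0.12) and 0.05 (SE 0.11).

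Among other regulators, no peak passed an unadjusted p under 0.05. Their log2 differences lay between -0.15 (*Zfp451*, a SUMO ligase) and 0.22 (*Zfp384*), with *Zfp219*, *Zfp644* and *Zfp703* between. *Zfp207*, a spindle protein, *Zfp326* and *Zfp638*, which act in splicing, and *Zfp91*, a ubiquitin ligase, had differences between -0.07 and 0.12. In all, 38 genes were listed by role, 26 had a member peak, and none of their 27 peaks reached an adjusted p under 0.05 in limma (2.93% of all tested peaks). At the unadjusted threshold 2 were higher (7.41%, beside 5.84% of all tested peaks) and 1 was lower (3.70%, beside 6.98%). Of the 12 others, 11 stand in the table under a Znf name.

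Members lay in 26 clusters of at least 3 genes with gaps of at most 500000 bases, which held 165 peaks (60.2%), and 82.4% of these were KRAB members, beside 35.8% of the 109 peaks outside clusters. The largest were on chromosome 17 between *Zfp160* and *Zfp13* (19 peaks) and on chromosome 13 between *Zfp712* and *Zfp273* (19 peaks), with median log2 differences of 0.03 and 0.02. On chromosome 7, the cluster from *Zfp84* to *Zfp260* held 12 peaks with a median of 0.02, and 2 of its peaks were higher at an unadjusted p under 0.05. The lowest median, -0.23, was that of the 4 peaks from *Zfp879* to *Zfp354a* on chromosome 11, and the highest, 0.12, that of the 9 peaks from *Zfp180* to *Zfp428* on chromosome 7, of which 8 were above 0. No cluster had more than 2 peaks at an unadjusted p under 0.05 in either direction.

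**Figure D5:**
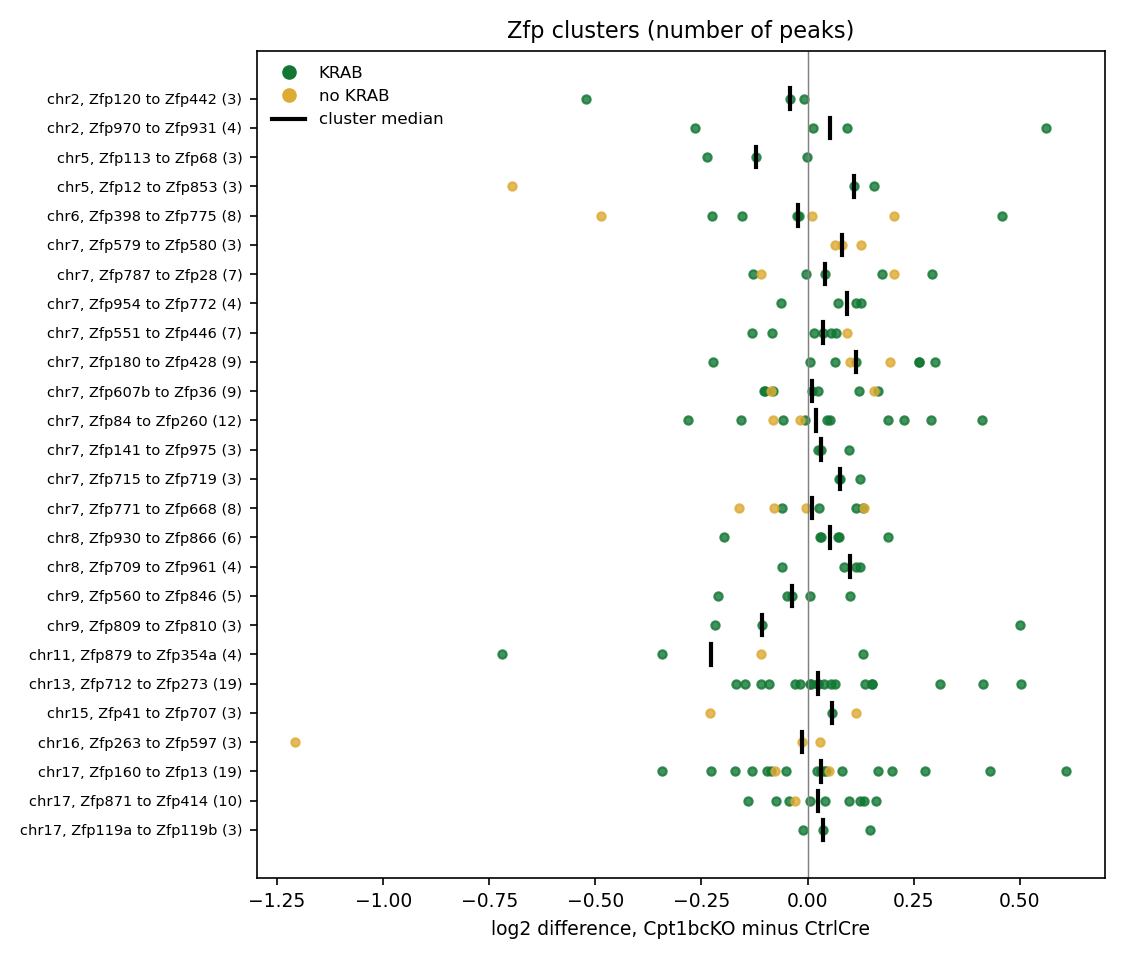
Log2 differences between genotypes (Cpt1bcKO minus CtrlCre) of the 165 member peaks in 26 genomic clusters, 1 row per cluster with its number of peaks, KRAB members in green and others in yellow, and the cluster median as a black bar. Cluster medians lie between -0.23 and 0.12, and members of the same cluster lie on both sides of 0 in most rows.

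In 7 genes there were 2 peaks each, namely *Zfp292*, *Zfp667*, *Zfp324*, *Zfp790*, *Zfp184*, *Zfp65* and *Zfp219*. Log2 differences of the 2 peaks were -0.30 and -0.24 at *Zfp292* and 0.23 and 0.19 at *Zfp790*. They were 0.59 and 0.05 at *Zfp184*, where the wider peak holds the start of the gene.

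The partners of KRAB proteins were read from a list of 34 genes, of which 30 had a tested peak. None reached an adjusted p under 0.05 in limma, beside 2.93% of all tested peaks, and 0 reached an unadjusted p under 0.05, beside 5.84% higher and 6.98% lower. *Trim28* had a log2 difference of -0.18 (SE 0.11) and *Setdb1* of 0.07 (SE 0.24). The values of *Chd4*, a remodeller of the NuRD complex, did not overlap and were higher in Cpt1bcKO (0.20, SE 0.11), 1 of 30 peaks (3.33%) in that direction, beside 7.80% of all tested peaks. The median over the 30 peaks was 0.07.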

How the data were processed

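The labels list 12 mouse libraries, of which 6 are inputs with no column in the table used here. The authors trimmed reads with Trimmomatic 0.39, aligned them to mm10 with STAR 2.6.1d keeping unique alignments, removed duplicates with Picard 2.21.7, called peaks with MUSIC (false discovery rate 0.2), merged them and named each peak by a promoter within 5000 bases. The authors produced counts per union peak with bigWigAverageOverBed. The deposited values per library are such counts divided by DESeq2 (1.26.0) size factors and rounded by the authors, so each is a score rather than a raw count. They are called normalized read counts here, although whether such a count equals a single read is not stated. The deposited genotype means are a signal of the same scale that the authors left unrounded, and they served to recover whole counts (15848 of 15848 peaks with a single solution). The fold changes and p-values that the authors' table also holds were not used. There were 0 unmapped sample columns.

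log2(value + 1) was fitted by genotype in limma 3.58.1 (lmFit, eBayes with trend, R 4.3.3) over all 15039 peaks with a mean of at least 10, two-sided, with Benjamini-Hochberg adjustment over all of them. Such log2 differences understate the change of low peaks. Recovery and fit were tested on simulated data. KRAB boxes (at least 7 of 9 key positions) and C2H2 fingers were found by pattern in the longest coding sequence of each gene in GENCODE vM21. CpG and GC content came from GRCm38.p6 and promoters from RefSeq. The floor of 3 counts covers counting error only, whereas the SD and SE values measure the spread between libraries.

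Members, lists and tests were chosen with earlier results of these data known. Named genes are members with an adjusted p under 0.05, in each direction the 10 or fewer smallest p below 0.05 without overlap, the genes listed by role, the 5 highest, 5 lowest and 5 widest peaks, and others where said. Alternatives were other pseudocounts, filters and scalings, a GC correction, limma-voom, a replicate block and leaving out each library.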

Additional observations from a re-analysis of the deposited data

How the results depend on the processing

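The number of member peaks with an adjusted p under 0.05 in limma was 1 and became 2 with the GC correction (*Zfp385b* and *Zfp568*) and 2 with limma-voom on recovered counts (*Zfp385b* and *Zfp597*). It ranged from 0 to 3 when each library was left out, with 0 without CtrlCre replicate 1 or Cpt1bcKO replicate 2, 2 without CtrlCre replicate 2 and 3 without CtrlCre replicate 3. The 21 members at an unadjusted p under 0.05 ranged from 12 (without CtrlCre replicate 2) to 26 when each library was left out, and were 26 with the GC correction. Those higher in Cpt1bcKO, 13 with all libraries, ranged from 5 to 15 in the same way, with 8 under limma-voom and 17 with the GC correction, with or without the replicate block. Those lower, 8 with all libraries, were 5 with a mean of at least 50. Calls over all tested peaks under the same settings are not given beside the counts in this section. Counts by family were added after seeing the data. KRAB members higher at that threshold, 10 with all libraries, ranged from 3 (without CtrlCre replicate 2) to 12 when each library was left out, with 6 without Cpt1bcKO replicate 2, 5 under limma-voom and 13 with the GC correction, with or without the block. Lower KRAB members, 1 with all libraries, ranged from 1 to 5 when each was left out, with 0 for a mean of at least 50, 2 with quantile normalization and 5 under limma-voom. Lower members without KRAB, 7 with all libraries, ranged from 2 (without CtrlCre replicate 2) to 8 over left-out libraries, with 4 without Cpt1bcKO replicate 1. When each library was left out, the median log2 difference ranged from 0.00708 to 0.0536 over members (0.0288 with all libraries) and from 0.00561 to 0.0700 over KRAB members (0.0289), and the difference in the share of the signal from 0.00459 to 0.0372 percentage points (0.0171), all above 0. With quantile normalization these were 0.0155, 0.0169 and 0.00577. The corepressor list kept 0 adjusted calls, limma-voom included.

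Some members with a difference near 0 changed sign. With the GC correction, *Zfp207* moved to 0.0155 and *Zfp445* to 0.0122, with or without the replicate block, and with limma-voom *Zfp644* moved to 0.0155 and the smaller *Zfp219* peak to -0.14. Leaving out single libraries gave log2 differences from -0.20 to 0.0345 at *Zfp207*, from -0.33 to 0.33 at the smaller *Zfp219* peak, from -0.21 to 0.0515 at *Zfp260*, from -0.024 to 0.14 at *Zfp30*, from -0.19 to 0.0377 at *Zfp36* and from -0.0387 to 0.0781 at *Zfp36l1*. The ranges were -0.27 to 0.0030 at *Zfp398*, -0.14 to 0.0092 at *Zfp418*, -0.16 to 0.0606 at *Zfp445*, -0.48 to 0.0937 at *Zfp459*, -0.0032 to 0.18 at *Zfp609*, -0.18 to 0.11 at *Zfp638* and -0.10 to 0.0796 at *Zfp644*. At *Zfp648*, *Zfp827* and *Zfp91* they were -0.60 to 0.53, -0.0609 to 0.0209 and -0.016 to 0.11. None of these peaks was called under any alternative. The causes of these moves were not tested.

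Same-numbered libraries of the 2 genotypes correlated in their deviations by 0.076, -0.081 and 0.105. Libraries with different numbers were not compared, so these values cannot settle whether the numbers pair them. With the replicate block, 1 member had an adjusted p under 0.05 and 20 an unadjusted one. Depth limits the low members, and 3 libraries a group limit every test.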
